A study of Mus musculus with 15 samples.

Results

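Catalase and 9 other antioxidant enzymes were followed in the retinal pigment epithelium (RPE), a sheet of pigmented cells that serves the photoreceptors, in 4 groups of mice. The genes were the rows of the deposited count table whose Ensembl identifier maps to Cat, Sod1, Sod2, Gpx1, Gpx4, Prdx1, Prdx6, Gsr, Txnrd1 or Nqo1. All 10 were found among the 46078 genes of the table, and all 10 passed the filter on low counts in each comparison. The samples were female mice at postnatal day 14, with RNA taken from 2 hours after light onset, and every library, wild type included, is labelled as of mixed strain, C57BL/6J with B6;129-Mertktm1Grl/J. The Mertk WT group (4 libraries) has wild-type Mertk, a receptor tyrosine kinase with which RPE takes up shed photoreceptor outer segments, and the Mertk KO group (4 libraries) carries the knockout allele. The other two groups are wild type for Mertk and either carry a Bai1 transgene (Bai1 Tg pos, 3 libraries) or do not (Bai1 Tg neg, 4 libraries), Bai1 being a phosphatidylserine-recognition receptor whose gene symbol is Adgrb1. Which promoter drives the transgene is not stated in the labels. The series asks how receptors of this kind compensate for each other.

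RPE works under high oxygen and light and takes up lipid-rich outer segment membrane each day, so it is known for a strong defence against reactive oxygen. Superoxide dismutases turn superoxide into hydrogen peroxide, and catalase in peroxisomes, glutathione peroxidases and peroxiredoxins break the peroxide down. Glutathione reductase and thioredoxin reductase return the reducing power that these enzymes spend, with electrons from NADPH, and part of the set is controlled by the transcription factor NRF2, which binds antioxidant response elements.

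The promoter of Cat is shown because Cat was the enzyme that differed between genotypes, and short windows of 3 other promoters are shown because they hold the core letters of an antioxidant response element. Promoter sequences were listed in the RefSeq table (GRCm38.p6) for 8 of the 10 genes. The Cat window covers the 250 bases before its RefSeq start, chr2:103485154-103485403 on the minus strand, and its capitals mark the letters CCAAT on either strand and GGGCGG, a GC box:
Cat: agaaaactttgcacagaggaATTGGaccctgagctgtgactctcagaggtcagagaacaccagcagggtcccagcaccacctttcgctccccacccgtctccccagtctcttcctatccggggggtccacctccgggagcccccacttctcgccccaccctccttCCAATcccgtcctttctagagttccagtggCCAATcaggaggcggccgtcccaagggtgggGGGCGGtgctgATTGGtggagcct
The other windows are printed along their gene's strand, with the response element core in capitals, at chr4:116685455-116685485 (plus strand) for Prdx1, chr10:82859103-82859133 (plus strand) for Txnrd1 and chr16:90220695-90220725 (plus strand) for Sod1:
Prdx1: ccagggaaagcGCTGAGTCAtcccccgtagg
Txnrd1: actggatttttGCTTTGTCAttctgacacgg
Sod1: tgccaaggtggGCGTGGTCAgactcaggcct

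The Cat window holds 4 CCAAT matches, and 276 of 32851 promoters of the same length (0.84%) hold at least 4. Searched on both strands, CCAAT occurs in 33.8% of these promoters and GGGCGG in 32.7%; neither motif was placed so as to overlap the other in the Cat window. The response element core was searched as TGACNNNGC on both strands and occurs in 10.2% of promoters and in promoters of 11.5% of genes. It ends 125 bases before the Prdx1 start, 84 bases before 1 of the 3 Txnrd1 starts listed and 48 bases before the Sod1 start. The letters were not found in the 250-base windows of Cat, Nqo1, Gpx1, Sod2 or any listed start of Gpx4, which says nothing about elements farther away. The sequence is that of the C57BL/6J reference, and the sequence of the chromosome that carries the knockout allele was not read.

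The 10 transcripts covered a wide range of abundance in RPE. Levels between genes are compared as TPM, which divides the counts by gene length, and are means over all 15 libraries. Gpx4, which removes lipid peroxides from membranes, was highest at 1621 TPM and ranked 50th of the 14520 genes tested. It was followed by Sod1, the cytosolic copper-zinc dismutase, at 1112 TPM (rank 85), and by Cat at 762 TPM (rank 135). Nqo1, a quinone reductase and a classical NRF2 target, stood at 499 TPM, and Prdx1, the abundant cytosolic peroxiredoxin, at 320 TPM. Gpx1, the cytosolic glutathione peroxidase, and Prdx6, a peroxiredoxin that acts on phospholipid peroxides, stood at 198 and 162 TPM. The lowest were Txnrd1, the cytosolic thioredoxin reductase (88.9 TPM), Sod2, the mitochondrial manganese dismutase (87.1 TPM), and Gsr, glutathione reductase (66.1 TPM, rank 2278). Gpx4 and Gsr, both in glutathione-dependent defence, thus lay at opposite ends of the order.

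**Figure D1:**
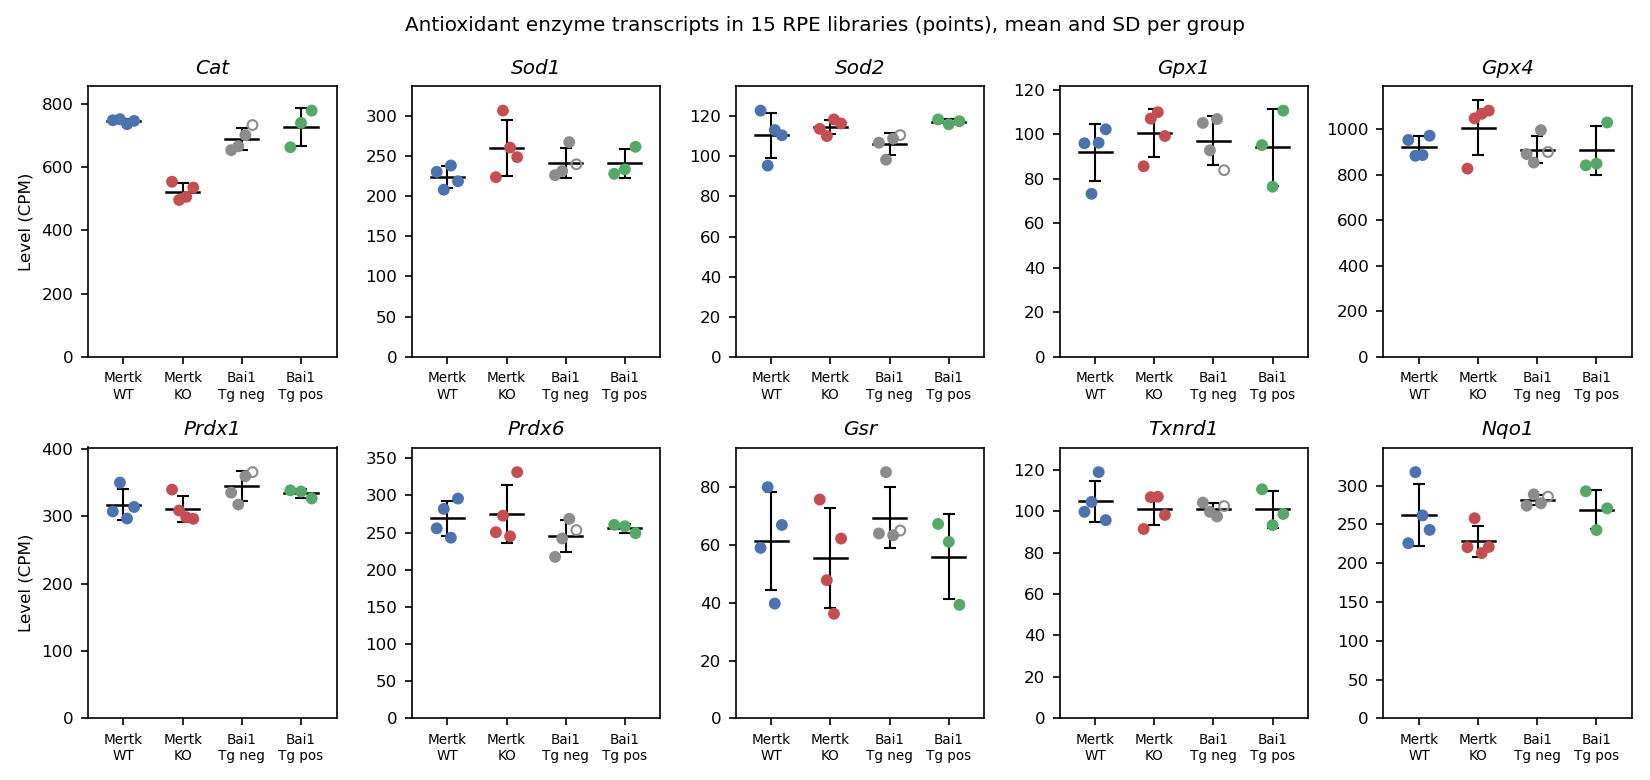
Level of each transcript in CPM (counts scaled by library size with TMM factors over all libraries) in the 15 libraries. Points are libraries, black lines are group means with SD, and the open point is Bai1 Tg neg replicate 4. Cat is the panel in which one group, Mertk KO (496.3 to 554 CPM), lies below every library of the other groups (654.2 to 779.1 CPM).

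Levels within one gene are given below as CPM (counts scaled by library size with TMM factors over all 15 libraries). Each library held between 9591129 and 20024507 counts, and no pair of replicates agreed within sampling noise (lowest chi-square per degree of freedom 5.04). The level of Mertk itself was 234 to 258.6 CPM in the wild-type and 155.1 to 193.9 CPM in the knockout libraries (log2 fold change -0.48, edgeR adjusted p = 0.0461), and a count per gene does not separate deleted from remaining exons. Adgrb1 was at 167.1 to 169.8 CPM in Bai1 Tg pos and at most 0.143 CPM in Bai1 Tg neg replicates 1 to 3. Bai1 Tg neg replicate 4, however, had 143.5 CPM, against its label, and values without that library are given beside the results that use it. Of 12 RPE markers 11 were above 100 CPM in all libraries, led by Ttr (20724 to 26467 CPM) and Dct (5487 to 8649 CPM), and Best1 was at 0 to 1.81 CPM. None was called in the Mertk comparison, and their sum was 51626 to 57615 CPM in Mertk WT and 49744 to 54161 CPM in Mertk KO. The labels do not say that replicates of a group came from separate animals, so p-values here reflect library-to-library spread, part of which may be technical.

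Catalase fell in Mertk KO. The Mertk WT libraries had 748.6, 751.9, 736.2 and 746.6 CPM of Cat, and the Mertk KO libraries had 554, 496.3, 506.2 and 535.7 CPM. All 4 knockout libraries were below all 4 wild-type libraries, and the wild-type values lay within a band far narrower than the gap. The means were 746 ± 6.79 CPM in Mertk WT and 523 ± 26.5 CPM in Mertk KO (SD, n = 4 each). The log2 fold change was -0.52 (SE 0.067, 95% interval -0.66 to -0.37), a fitted ratio of 0.700 (a change of -36.7 to -22.6% over the interval), with an adjusted p of 0.00457 (edgeR quasi-likelihood test, two-sided, Benjamini-Hochberg over 13447 genes). Cat was the single member called among 10, where 0.223% of all genes tested were called (30 genes, of which 22 were lower, 0.164%) and 5.58% had an unadjusted p under 0.05. It was also the single member whose groups did not overlap, against 3.55% of all genes. Among the 30 called genes Cat ranked 11th by p and 2nd by CPM.

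Superoxide dismutases did not pass the test. Sod1 had 230.1, 207.9, 238 and 218.4 CPM in Mertk WT and 223.5, 306.3, 260.3 and 248.4 CPM in Mertk KO. The knockout mean was above the wild-type mean (260 ± 34.7 against 224 ± 13.2 CPM), but replicate 1 of the knockout lay inside the wild-type range. Its log2 difference of 0.21 (95% interval 0.01 to 0.42) had an unadjusted p of 0.0442 and an adjusted p of 0.89 by edgeR. Sod2 had 122.8, 95.38, 113.1 and 110.5 CPM in Mertk WT and 113.7, 110.1, 118.4 and 116.4 CPM in Mertk KO. The Sod2 groups overlapped throughout, with a log2 difference of 0.05 (-0.13 to 0.23, adjusted p = 0.943).

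Glutathione peroxidases gave intervals that include 0. Gpx4 had 953, 883.6, 886.6 and 971.8 CPM in Mertk WT and 827.1, 1048, 1068 and 1082 CPM in Mertk KO. Knockout replicate 1 was thus below the wild-type range and the other 3 above it, and the log2 difference was 0.12 (-0.07 to 0.31, edgeR adjusted p = 0.91). Gpx1 had 95.94, 73.22, 96.15 and 102.2 CPM in Mertk WT against 85.59, 107, 109.9 and 99.19 CPM in Mertk KO. The Gpx1 groups overlapped, with a log2 difference of 0.13 (-0.12 to 0.37, edgeR adjusted p = 0.914).

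Peroxiredoxins were close to equal in their means. Prdx1 was at 307.2, 350, 296.7 and 313.8 CPM in Mertk WT and at 339.6, 308.6, 298.6 and 296.3 CPM in Mertk KO. Prdx6 was at 255.7, 281.9, 243.1 and 295.8 CPM in Mertk WT and at 250.5, 272.8, 245 and 331.4 CPM in Mertk KO. Both genes overlapped between genotypes, with log2 differences of -0.03 (-0.20 to 0.14) for Prdx1 and 0.03 (-0.19 to 0.25) for Prdx6. Both intervals exclude a fall as large as the Cat estimate.

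The reductases also overlapped between Mertk genotypes. Txnrd1 had 99.73, 104.5, 118.9 and 95.72 CPM in Mertk WT and 91.44, 106.8, 107 and 98.24 CPM in Mertk KO, a log2 difference of -0.06 (-0.25 to 0.13). Nqo1 had 225.8, 317.5, 261.7 and 243 CPM in Mertk WT and 220.6, 258, 213.1 and 221 CPM in Mertk KO. Knockout replicates 1, 3 and 4 of Nqo1 lay below the wild-type range, and its log2 difference was -0.20 (-0.43 to 0.02, unadjusted p = 0.0757, edgeR adjusted p = 0.9). Gsr had 58.98, 80, 39.71 and 66.91 CPM in Mertk WT and 75.7, 47.79, 36.18 and 62.19 CPM in Mertk KO. Its replicates spread so widely that the interval of its log2 difference of -0.15 ran from -0.79 to 0.49. A fall of the size of that in Cat lies inside this interval and was not excluded for Gsr.

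**Figure D2:**
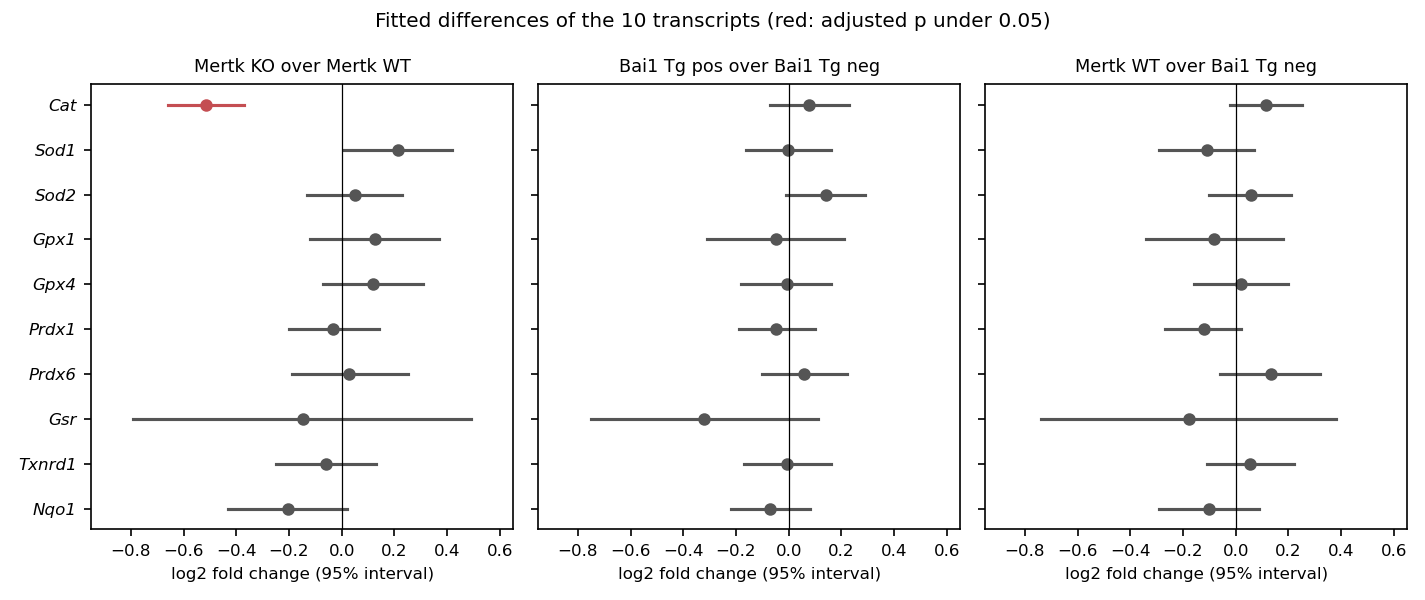
Fitted log2 fold change (points) with 95% interval (lines) of each transcript in 3 comparisons, from edgeR. Cat in Mertk KO over Mertk WT (-0.52) is the one estimate past the adjusted threshold, and Gsr has the widest intervals.

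Cat lies on chromosome 2 (GRCm38, 103453849 to 103485160, minus strand), 25.2 Mb from Mertk (128698956 to 128802894), so it is linked to the knockout allele. The strain label names a mixture with a B6;129 line, and chromosome around a targeted allele is inherited with it. An effect of Mertk loss on Cat and an effect of sequence linked to the allele cannot be told apart in these data. Of the 30 genes called, 18 were among the 1078 tested on chromosome 2 (1.67%) and 12 among the 12369 on other chromosomes (0.097%). Between Cat and Mertk 11 of 167 genes were called (6.59%), 5 higher and 6 lower. Before Cat, on the side away from Mertk, 2 of 510 were called (0.392%), and beyond Mertk 3 of 399 (0.752%).

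Cat lay near the outer edge of the called stretch of chromosome 2. Prr5l, which encodes a protein bound to mTORC2, was 1.57 Mb farther from Mertk and was the outermost call on that side. Prr5l rose from 45.1 ± 5.9 CPM in Mertk WT to 72.8 ± 5.25 CPM in Mertk KO (log2 fold change 0.69, edgeR adjusted p = 0.0128). Ldlrad3, a receptor-like membrane protein gene 1.27 Mb from Cat, fell with a log2 fold change of -2.42 (adjusted p = 0.000966). These were the 2 genes called among 58 others tested within 10 Mb of Cat (3.45%), and they moved in opposite directions. None of the 10 other genes tested within 1 Mb of Cat was called by edgeR, and 2 of them had an unadjusted p under 0.05, Slc1a2 (log2 difference -1.05, adjusted p = 0.624) and Cd59a (-0.47, adjusted p = 0.688). The nearest on either side were Abtb2 (0.0811 Mb away, log2 difference 0.08, adjusted p = 0.955) and Apip (0.361 Mb away, -0.02, adjusted p = 0.985). The Prr5l fold stayed between 0.63 and 0.69 where its call was lost, in the fit over all 15 libraries (adjusted p = 0.0629), without Mertk KO replicate 1 or 4 (0.0523 and 0.0683) and without Mertk WT replicate 3 (0.05).

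**Figure D3:**
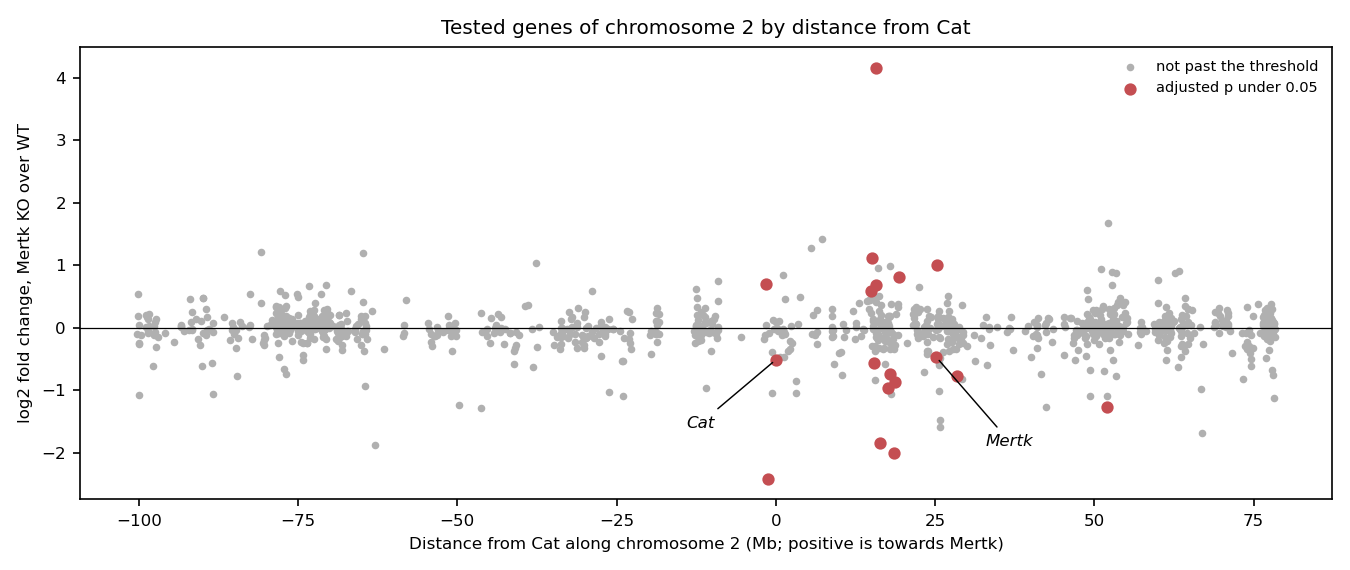
Fold change (log2) in Mertk KO relative to Mertk WT for the 1078 tested genes of chromosome 2 by distance from Cat in Mb. Red points are the 18 genes called; 11 of them lie between Cat and Mertk, and 2 lie on the far side of Cat.

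The Bai1 transgene comparison called none of the 10 enzymes, where edgeR called 2 of 13855 genes (0.0144%) and 718 genes (5.18%) had an unadjusted p under 0.05. None of the 10 was called in 14 alternative fits either, DESeq2 and limma-voom among them. Cat had 654.2, 666.2, 701.6 and 733.5 CPM in Bai1 Tg neg and 663.1, 740.2 and 779.1 CPM in Bai1 Tg pos. The groups overlapped, with means of 689 ± 35.9 and 727 ± 59 CPM (SD, n = 4 and 3) and a log2 difference of 0.08 (-0.07 to 0.23, adjusted p = 0.958). Without Bai1 Tg neg replicate 4 that difference was 0.11 (adjusted p = 0.988), and 5 genes in all were called. The 95% interval excludes a fall of the size seen in Mertk KO.

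Sod2 was the single enzyme whose Bai1 groups did not overlap, where 6.29% of all genes tested did not. Its values were 106.8, 98.31, 108.8 and 110.6 CPM in Bai1 Tg neg and 118.4, 116 and 117.5 CPM in Bai1 Tg pos. The log2 difference was 0.14 (-0.01 to 0.29), with an unadjusted p of 0.0645 and an edgeR adjusted p of 0.948, so it did not pass the test. Gsr had 63.97, 85.19, 63.32 and 64.98 CPM in Bai1 Tg neg and 67.26, 61.08 and 39.27 CPM in Bai1 Tg pos, a log2 difference of -0.32 (-0.75 to 0.11). That value rests on single libraries, being -0.12 without Bai1 Tg pos replicate 3, -0.21 without Bai1 Tg neg replicate 2 and -0.47 without Bai1 Tg pos replicate 1. Nqo1 ran from 274.2 to 288.8 CPM in Bai1 Tg neg and from 242.7 to 292.8 CPM in Bai1 Tg pos, a log2 difference of -0.07 (-0.22 to 0.08).

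The remaining enzymes overlapped between the Bai1 groups. Sod1 stood at 241 ± 18.3 CPM in Bai1 Tg neg and 241 ± 18 CPM in Bai1 Tg pos (log2 interval -0.16 to 0.16), and Gpx4 at 910 ± 60.7 and 907 ± 106 CPM (-0.18 to 0.16). Gpx1 stood at 97.1 ± 10.8 and 94 ± 17.1 CPM (-0.31 to 0.21) and Txnrd1 at 101 ± 2.97 and 101 ± 8.83 CPM (-0.17 to 0.16). For the peroxiredoxins the values were 344 ± 22.3 and 334 ± 6.44 CPM for Prdx1 (-0.19 to 0.10) and 245 ± 21.6 and 256 ± 5.99 CPM for Prdx6 (-0.10 to 0.22). The edgeR adjusted p of all 10 enzymes lay between 0.948 and 0.998. Without Bai1 Tg neg replicate 4 it lay between 0.988 and 1, with log2 differences of 0.16 for Sod2, -0.35 for Gsr, -0.11 for Gpx1, 0.08 for Prdx6 and -0.06 for Nqo1, and of at most 0.02 in size for Sod1, Gpx4, Prdx1 and Txnrd1.

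The Mertk effect on Cat differed from the Bai1 effect. A test of the difference of both effects in 1 fit over the 15 libraries gave a log2 value of -0.59 (SE 0.094, 95% interval -0.79 to -0.40, edgeR adjusted p = 0.00638), where 0.103% of 14520 genes were called and 0.0895% with a negative difference. Without Bai1 Tg neg replicate 4 it was -0.62 (adjusted p = 0.00731). For the other 9 enzymes this difference had adjusted p-values from 0.744 to 0.985. The widest interval among them was again that of Gsr (-0.65 to 1.00).

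The 2 sets labelled wild type for Mertk and without the transgene, Mertk WT and Bai1 Tg neg, were also compared. None of the 10 enzymes was called between Mertk WT and Bai1 Tg neg (edgeR adjusted p 0.816 to 0.997), where 0.379% of 14520 genes were called and 6.95% had an unadjusted p under 0.05. None was called in the 14 alternatives, which include DESeq2 and limma-voom and the fit without Bai1 Tg neg replicate 4. Cat was the one member whose libraries did not overlap, against 5.71% of all genes, with 736.2 to 751.9 CPM in Mertk WT and 654.2 to 733.5 CPM in Bai1 Tg neg. Its log2 difference of 0.11 (-0.02 to 0.25) had an adjusted p of 0.816, and without Bai1 Tg neg replicate 4 it was 0.15 (adjusted p = 0.747). Prdx1 was at -0.12 (-0.27 to 0.02, adjusted p = 0.829). All Bai1 libraries carry a first tag number of 12 and the Mertk libraries 17 or 21, so these sets and whatever the tag marks cannot be told apart.

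Ordered by group mean, Cat ran from Mertk KO (523 CPM) through Bai1 Tg neg (689) and Bai1 Tg pos (727) to Mertk WT (746). The step from Mertk KO to Bai1 Tg neg was beyond the larger SD of that pair, and the others were not. In the other 9 genes no step between neighbouring groups exceeded the larger SD. The highest group mean was 1.43 times the lowest for Cat, 1.25 times for Gsr, 1.23 times for Nqo1 and 1.16 times for Sod1. It was between 1.04 times (Txnrd1) and 1.12 times (Prdx6) for the rest.

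Gsr varied most between libraries, and its differences between genotype groups did not pass the test. Its coefficient of variation over the 15 libraries was 24%, at or above that of 96.9% of the 3976 genes with a mean of at least 50 CPM, whose median was 8.97%. The value for Cat was 14.6% (at or above 87.2% of those genes), and those of Sod2, Txnrd1 and Prdx1 were lowest at 6.65%, 6.94% and 6.95%. Gsr was under 50 CPM in 4 libraries: Mertk KO replicate 3 (36.18), Bai1 Tg pos replicate 3 (39.27), Mertk WT replicate 3 (39.71) and Mertk KO replicate 2 (47.79). The next library stood at 58.98 CPM, and the 4 low libraries came from 3 of the 4 groups.

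After the Gsr values had been seen, each of the 11 tested genes within 1 Mb of Gsr on chromosome 8 (33652523 to 33698163) was set beside it, and 2 of them, Rbpms and Saraf, split the libraries as Gsr did. Saraf, a regulator of store-operated calcium entry 0.456 Mb away, was at 214.7, 186.4, 203.2 and 198.7 CPM in the 4 libraries above and at 138 to 179.8 CPM in the other 11. Rbpms, an RNA-binding protein gene 0.0845 Mb away, was at 9.824, 9.509, 7.663 and 9.316 CPM in those 4 and at 11.29 to 17.08 CPM elsewhere. Saraf was thus highest, and Rbpms lowest, in the libraries where Gsr was low, with no overlap. That split was set by the Gsr values, and the share of all genes that divide the libraries the same way is not given here. Pearson's r of log2 CPM with Gsr over 15 libraries was -0.90 for Saraf, the lowest of all genes tested, and 0.83 for Rbpms. Fnta, a farnesyltransferase subunit gene 7.64 Mb away on the same chromosome, had 0.85. The other 9 neighbours ran from -0.40 (Leprotl1) to 0.58 (Wrn), and the 3 that lie closer to Gsr than Rbpms does were at 0.24 (Ppp2cb), 0.23 (Gtf2e2) and -0.09 (Ubxn8). The libraries share their preparation and scaling, and the cause was not tested.

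**Figure D4:**
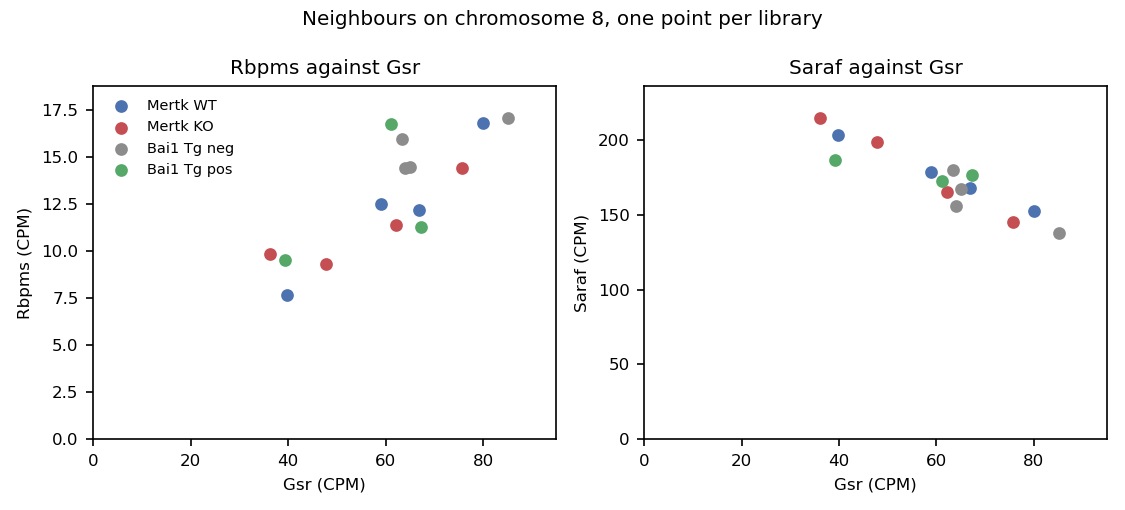
Rbpms (left) and Saraf (right) against Gsr, all in CPM, 1 point per library and colour by group. The 4 libraries with Gsr under 50 CPM have Rbpms under 10 CPM and Saraf above 186 CPM, and they belong to Mertk WT, Mertk KO and Bai1 Tg pos.

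The 10 transcripts did not vary as one block. Over the 15 libraries the highest Pearson correlations of log2 CPM were those of Gpx4 with Sod1 (0.69), Gpx1 with Gpx4 (0.68), Gpx1 with Sod1 (0.61) and Nqo1 with Prdx1 (0.59). The lowest were Nqo1 with Sod2 (-0.67) and Gsr with Sod1 (-0.60). Cat correlated at 0.50 with Nqo1 and at -0.50 with Sod1. These are descriptions over libraries that share scaling and genotype groups.

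The genes most like Cat over all 15 libraries were Ivd (r = 0.92), Pla2g4b (0.92), Trp53bp2 (0.91), Sord (0.91) and Gja1 (0.91). Ivd, a mitochondrial enzyme of leucine breakdown, Sord, sorbitol dehydrogenase, and Pla2g4b, a phospholipase, lie on chromosome 2, Trp53bp2 on chromosome 1 and Gja1, the connexin 43 gene, on chromosome 10. Ivd averaged 192 CPM in Mertk WT and 130 CPM in Mertk KO, and Gja1 1189 and 783 CPM. At the other end stood Gm3650 (-0.94) on chromosome 18, and Fbln7 (-0.89) and Eif2ak4 (-0.89) on chromosome 2. Ivd, Pla2g4b, Sord and Eif2ak4 lie between Cat and Mertk, and Fbln7 lies beyond Mertk. Like Cat, these chromosome 2 genes are linked to the knockout allele. Gm3650 averaged 2.66 CPM in Mertk KO and 0 CPM in each other group. Pla2g4b and Gm3650 averaged only 0.923 and 0.708 CPM over the 15 libraries, so their correlations rest on low counts. The 4 Mertk KO libraries are among the 15 points of each value, and nothing of shared control is read from it.

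The wider redox gene set did not share the fall in Cat. Of 174 genes in 14 lists (dismutases, peroxidases, peroxiredoxins, glutathione and thioredoxin systems, NRF2 control and targets, NADPH supply, glutathione S-transferases, metal handling, repair, peroxisome, oxidant sources and regulators), 153 were tested in the Mertk comparison. Cat was the 1 gene lower past the threshold and none was higher; 79 values were above 0 and 74 below. The median log2 fold change was 0.00, beside -0.001 for all genes tested. In the Bai1 comparison 154 were tested, none passed, 70 were above 0 and 84 below, and the median was -0.01. The Mertk groups did not overlap in 7 of the 153 genes (4.58%, beside 3.55% of all genes), namely Cat, Gclm, Glrx5, Txn1, Taldo1, Ppargc1b and Sirt3.

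Among the dismutases and peroxidases, Sod3, the extracellular dismutase, averaged 43.4 ± 9.1 CPM in Mertk WT and 34 ± 5.55 CPM in Mertk KO (log2 difference -0.35, edgeR adjusted p = 0.883). None of the 4 dismutases passed, and their median log2 difference was 0.08. In the list of catalase and glutathione peroxidases 6 of 9 genes were tested, and the 5 other than Cat did not pass. Prdx5, a peroxiredoxin of mitochondria and peroxisomes, had the smallest p of 7 peroxiredoxin genes, with 144 ± 10.2 and 175 ± 20.7 CPM (0.28, adjusted p = 0.624). It shares 19.1% of its exon bases with Trmt112 on the opposite strand, so its unstranded count is uncertain. Srxn1, which reactivates oxidised peroxiredoxins and lies on chromosome 2, stood at 23 ± 1.68 and 23.1 ± 2.91 CPM.

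In glutathione synthesis and recycling none of 13 tested genes passed, 9 of them were below 0 and the median was -0.08. Gclm, the modifier subunit of the enzyme that limits glutathione synthesis, averaged 85.9 ± 8.46 CPM in Mertk WT and 71.2 ± 7.41 CPM in Mertk KO (log2 difference -0.27, edgeR adjusted p = 0.706). Gss and Ggt7 lie on chromosome 2 and overlap Acss2, a gene called in this comparison, so their unstranded counts are uncertain. Their log2 differences were -0.15 (adjusted p = 0.905) and -1.09 (adjusted p = 0.765). Of 7 thioredoxin system genes none passed either, with Txn1, thioredoxin itself, at 0.21 (adjusted p = 0.89).

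NRF2 control and its targets gave no call. Nfe2l2, the NRF2 gene on chromosome 2, averaged 70.9 ± 2.48 CPM in Mertk WT and 66.5 ± 3.02 CPM in Mertk KO (log2 difference -0.10, edgeR adjusted p = 0.91). Of 24 NRF2 target genes tested, 10 were above 0 and 14 below, with a median of -0.06. Ephx1, an epoxide hydrolase, was at -0.19 (adjusted p = 0.864). In NADPH supply the 12 genes split into 6 above and 6 below 0, with Idh2 at 0.14 and Aldh1l1 at 0.18.

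Glutathione S-transferases gave 0 calls among 17 tested genes, with Gsta1 at 0.58 (edgeR adjusted p = 0.543) and Gstt1 at 0.29 (adjusted p = 0.893). Mt3, a metallothionein that binds zinc and copper, had the smallest p in metal handling, with 208 ± 14.7 CPM in Mertk WT and 276 ± 48.9 CPM in Mertk KO. Its log2 difference was 0.40 (adjusted p = 0.467), and it passed the test only when Mertk KO replicate 1 was left out (0.52, adjusted p = 0.0283). Repair genes such as Selenok (-0.16) and Pon2 (-0.13) did not pass.

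Other peroxisome genes did not fall with Cat. Of 29 tested, 15 were above 0 and 14 below, the median was 0.01 and none passed by edgeR. Scp2, a peroxisomal thiolase and lipid carrier, was at -0.21 (adjusted p = 0.893) and Pex16, a peroxisome membrane assembly gene on chromosome 2, at -0.05 (adjusted p = 0.958). Ppargc1b, a coactivator of mitochondrial genes, and Sirt3, a mitochondrial deacetylase, were the regulators of smallest p, at -0.58 (adjusted p = 0.74) and 0.24 (adjusted p = 0.822). Exons of Sirt3 overlap Psmd13 and Ric8a on the opposite strand, so its count is uncertain too.

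**Figure D5:**
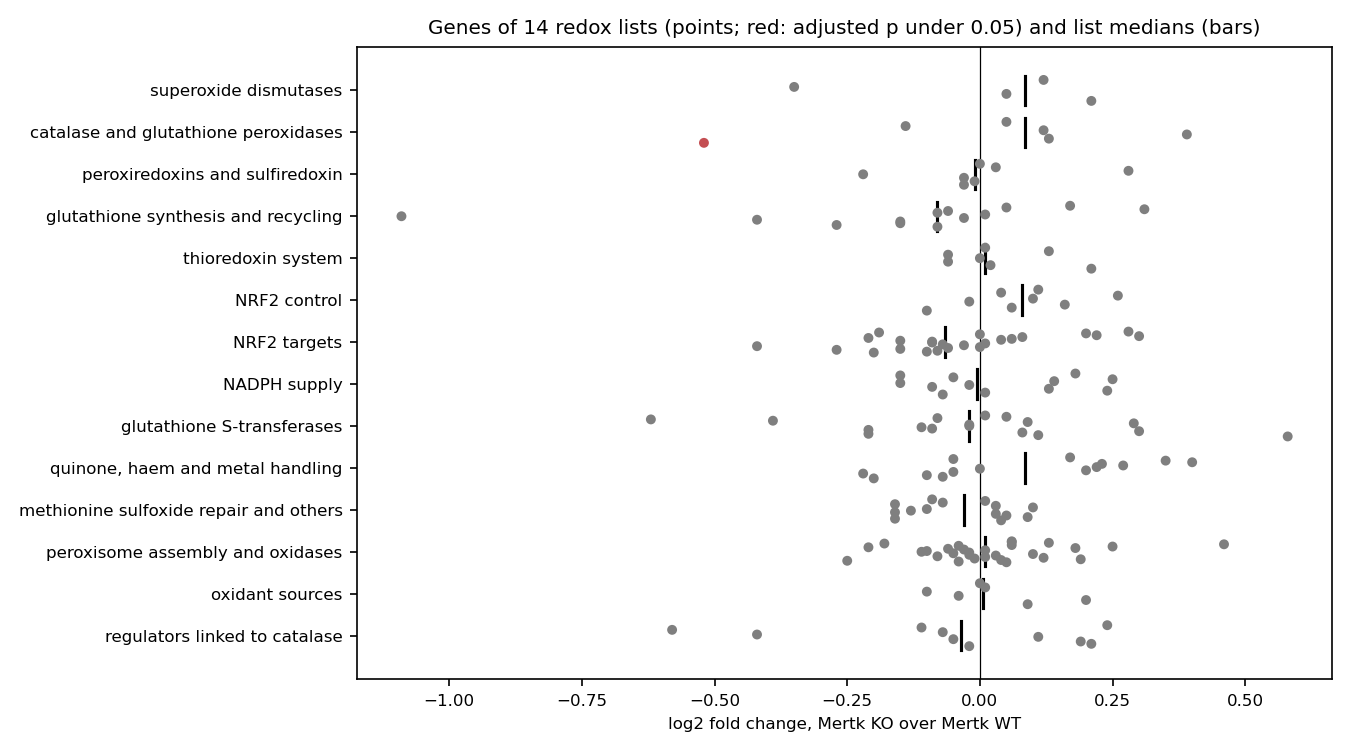
Fold change (log2) in Mertk KO relative to Mertk WT for the tested genes of 14 redox lists. Points are genes, black bars are list medians, and the red point marks Cat, at -0.52, in the list of catalase and glutathione peroxidases. The medians lie between -0.08 and 0.08.

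Markers of other cells were set beside these results. Rod photoreceptor markers summed to 899 to 3653 CPM in Mertk WT, 971.1 to 1620 CPM in Mertk KO, 205.1 to 471.9 CPM in Bai1 Tg neg and 265 to 792.8 CPM in Bai1 Tg pos. In the Mertk comparison 12 of 13 rod markers were below 0 (median log2 difference -0.68) and none was called, and the Cat value was as large with the rod marker level as a covariate (-0.52, edgeR adjusted p = 0.00343). Of markers of red blood cells, which hold much catalase, 7 were in the table and summed to 1.959 to 6.663 CPM in Mertk WT and 0.944 to 3.28 CPM in Mertk KO. Only 2 of them were tested, 1 below 0 and 1 above. Hbb-bs, their most abundant, had a log2 difference of -1.30 (unadjusted p = 0.0432, edgeR adjusted p = 0.889), and the other was at 0.18. Endothelial markers summed to 18.19 to 27.24 CPM in Mertk WT and 10.92 to 20.15 CPM in Mertk KO, with Kdr the most abundant. In the same order, macrophage markers summed to 631.9 to 700.6 and 652.5 to 736.2 CPM. Melanocyte markers summed to 1252 to 1348 and 1348 to 1512 CPM. Smooth muscle and pericyte markers summed to 291.8 to 322.5 and 297.3 to 363 CPM. Muller glia markers, which share Rlbp1 with the RPE list, summed to 8820 to 9848 and 8559 to 9422 CPM. Fibroblast markers summed to 4.932 to 51.56 and 3.54 to 49.4 CPM. The part of the marker lists other than the rod list in the result was not tested. In bulk RNA, fewer cells of a type and less RNA per cell cannot be told apart.

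Near-identical copies can split reads of some enzymes. Sod1 shares 298 bases at 98% identity with Gm8566 on chromosome 6, whose counts were 8.2% of those of Sod1, so Sod1 levels carry that uncertainty. Prdx1 and the pseudogene Gm21399 share 597 bases at 98.3% identity, but its counts were 0.468% of those of Prdx1. Gpx4 has the copy Gpx4-ps2 (99.7% identity over 733 bases), which is not among the genes of the count table. Whether it takes up reads of Gpx4 is therefore not known. Sod2 has matches of at most 193 bases to parts of other genes. For Cat, Gpx1, Prdx6, Gsr, Txnrd1 and Nqo1 no transcript of another gene matched over at least 150 bases at 95% identity or more. No enzyme among the 10 shares exons with another gene of the table.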

How the data were processed

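RPE RNA of 15 libraries was sequenced after poly-A selection with the TruSeq RNA kit, per the labels' protocols. The values are raw counts per gene, deposited as 1 table. Per the file headers the authors made it with featureCounts 1.5.0, which counted read pairs without a strand option. Alignment was with STAR against GRCm38, per the submitters' processing notes. For the annotation release and the STAR version no source used here gives a value. Symbols come from GENCODE M21 by Ensembl identifier (45143 of 46078 rows).

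Groups follow the titles. CPM, with TMM factors over all 15 libraries, and TPM, with the deposited gene length, were computed from the deposited counts. Tests used edgeR 4.0.16 in R 4.3.3 (TMM, filterByExpr, robust quasi-likelihood, two-sided) across all genes passing the filter, adjusted by Benjamini-Hochberg and called at 0.05. Each pair of groups was fitted on its own libraries, except that the wild-type sets and the difference of effects used all 15. Correlations used log2 CPM with a pseudocount of 0.5. Alternatives were DESeq2 1.42.0, RLE size factors, no filter, limma 3.58.1 with voom quality weights, all libraries in 1 fit, tag number, rod marker level or replicate number as a term, and leaving out each library; the scripts were tested on simulated data. Copies were sought with blastn 2.17.0 among the GENCODE transcripts. Intervals are at 95%, and come from the fits over libraries.

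The members and gene lists were chosen with earlier results of these data known. Named were all 10 enzymes, list genes past the threshold or with the 2 smallest p in the Mertk comparison of their list, tested list genes on chromosome 2, called genes within 10 Mb of Cat with its nearest tested neighbours, the genes most and least like Cat, and the most abundant markers. CCAAT and GGGCGG, the copies, the neighbours of Gsr and the correlations between enzymes were added after values had been seen, as were the named Gpx4-ps2, Glrx5, Taldo1, Slc1a2, Cd59a, Best1, Mt1, Mt2, Ftl1, Fth1 and the oxidant source genes. Some genes that this rule names are not reported here.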

Additional observations from a re-analysis of the deposited data

Results flagged for a closer look

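The highest or lowest library of a group stood apart from its others (gap over range above the Dixon value of 0.829 for 4 libraries) in 5 of 60 groups tested; chance gives about 1 in 20. Gpx4 was at 827.1 CPM in Mertk KO replicate 1, below the 1048 to 1082 CPM of the other 3 knockout libraries. Gsr was at 85.19 CPM in Bai1 Tg neg replicate 2, above the 63.32 to 64.98 CPM of the others. Prdx5 was at 137.5 CPM in Bai1 Tg neg replicate 4, the library with Adgrb1 reads, against 149.3 to 151.6 CPM. Among neighbours of Cat, Ldlrad3 was at 3.922 CPM in Bai1 Tg neg replicate 3 (others 6.823 to 7.212 CPM) and Apip at 24.93 CPM in Mertk KO replicate 2 (others 19.12 to 19.51 CPM).

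The Cat response differed between the 2 genotype contrasts, with a difference of log2 effects of -0.59 (edgeR adjusted p = 0.00638). The Mertk contrast gave -0.52 and the Bai1 contrast 0.08. Linkage of Cat to the knockout allele and the loss of Mertk cannot be told apart.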

How the results depend on the processing

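The fall of Cat in Mertk KO passed the threshold in all 16 alternatives, with an adjusted p of 0.0037 to 0.0354 when single libraries were left out. The difference of its effects passed in all 19. No other enzyme passed in any alternative; their lowest adjusted p was 0.476 in the Mertk, 0.181 in the Bai1, 0.475 in the difference and 0.395 in the wild-type comparison. Counts of genes called moved more. The Mertk count of 30 was 75 with DESeq2, 69 with no filter and 16 (without Mertk KO replicate 4) to 31 with single libraries left out. The Bai1 count of 2 was 26 with DESeq2, 85 with no filter, 0 with voom, 0 with all 15 libraries in 1 fit and 0 (without Bai1 Tg neg replicate 3) to 54 (without Bai1 Tg pos replicate 3) with single libraries left out. The wild-type count of 55 was 179 with DESeq2, 93 with voom, 0 with the rod marker level as a covariate and 2 (without Bai1 Tg neg replicate 1 or 2) to 96 (without Mertk WT replicate 1) with single libraries left out; the cause was not tested. Libraries of the same number were compared by correlating their deviations from their own group means over the genes tested. These correlations were low, at -0.0667, -0.00414, 0.0592 and 0.194 in the Mertk groups and 0.0272, 0.0413 and 0.00194 in the Bai1 groups. The highest was that of Mertk replicate 4, where both libraries carry a first tag number of 21. The closest library of the other group had the same number for Mertk KO replicates 3 and 4 and Bai1 Tg pos replicates 1 and 2. It had another number for Mertk KO replicates 1 and 2 and Bai1 Tg pos replicate 3. With the replicate block 24 genes were called for Mertk, Cat among them (-0.52, adjusted p = 0.0299), and 4 for Bai1.

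Log2 differences of genes far from the threshold changed sign. With the rod marker level as a covariate these were Prdx6 (-0.014) and Abtb2 (-0.03) for Mertk, Gpx1 (0.016), Gpx4 (0.014) and Txnrd1 (0.013) for Bai1, and Gpx1 (0.27) for the wild-type sets. Srxn1 for Mertk was -0.035 with voom and -0.0033 with the replicate block, under which Txnrd1 for Bai1 was 0.00094. Sod1 for Bai1 was 0.00099 with DESeq2, 0.0016 with RLE and 0.0088 with voom. With single libraries left out, the ranges that crossed 0 for Mertk were Sod2 -0.014 to 0.11, Prdx1 -0.075 to 0.02, Prdx6 -0.071 to 0.08, Gsr -0.33 to 0.012, Txnrd1 -0.098 to 0.0095, Srxn1 -0.063 to 0.065, Blvra -0.17 to 0.025, Pex16 -0.14 to 0.047, Apip -0.12 to 0.033 and Abtb2 -0.063 to 0.21. For Bai1 they were Sod1 -0.065 to 0.05, Gpx1 -0.18 to 0.084, Gpx4 -0.11 to 0.043 and Txnrd1 -0.075 to 0.046. For the wild-type sets they were Gpx1 -0.14 to 0.019, Gpx4 -0.0045 to 0.067 and Txnrd1 -0.013 to 0.093. For the difference of effects they were Prdx1 -0.035 to 0.069, Prdx6 -0.13 to 0.023, Gsr -0.031 to 0.34 and Txnrd1 -0.1 to 0.017.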

Other observations

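Classical enzymatic sources of superoxide and hydrogen peroxide were scarcely present in these RPE libraries. Nox3, Duox2 and Ncf4, genes of NADPH oxidases, and Xdh, xanthine dehydrogenase, had 0 counts in all 15 libraries. Cybb, the phagocyte NADPH oxidase subunit, had 17 counts over all libraries, Duox1 had 23 and Nox1 had 62. Nox4 was at 0.495 to 2.25 CPM and Cyba, the partner subunit shared by several oxidases, at 6.832 to 16.29 CPM.

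Transcripts of 4 metal-binding proteins stood above the 10 antioxidant enzymes. Over all 15 libraries Mt1, a metallothionein, averaged 4671 TPM, the ferritin chains Ftl1 and Fth1 2428 and 2302 TPM, and Mt2 1882 TPM, beside 1621 TPM for Gpx4. Between Mertk KO and Mertk WT the log2 difference was 0.27 for Mt1 and 0.22 for Ftl1 (edgeR adjusted p = 0.914 and 0.905), and Mt1 ranged from 436.8 to 1148 CPM over single libraries.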
